A study of Homo sapiens with 4 samples.

Results

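Heme degradation and iron storage were followed through 9 genes, chosen by symbol from the 13092 genes listed in at least 1 of the deposited tables: HMOX1 and HMOX2, BLVRA and BLVRB, FTH1 and FTL, TFRC, IREB2 and NCOA4. All 9 were listed in both tables and had a mean level of at least 1 RPKM (reads per kilobase of transcript, scaled to library size). The set was chosen with the ratios between these libraries known, that of HMOX1 among them, so the comparison below is a description and carries no test. The study looked for genes downstream of HADH-S, which the series title calls an isoform of hydroxyacyl-CoA dehydrogenase found in the nucleus. RNA came from RKO, a human colon carcinoma line. The labels give 1 library with the genotype HADH-S overexpression, called HADH-S cells here, and 1 named CTL with the genotype WT, called control cells. The labels name no vector, promoter, clone or time for either culture. Assigned reads numbered 6963608 in HADH-S cells and 6773421 in control cells. With 1 library per condition no difference has a replicate check, and the intervals given are exact 95% intervals for counting error only.

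Heme oxygenases open the heme ring and release biliverdin, carbon monoxide and ferrous iron. Biliverdin reductases turn the biliverdin into bilirubin, and ferritin, a hollow shell of heavy (FTH1) and light (FTL) chains, stores the iron. Cells take up iron from transferrin through the receptor TFRC. IREB2, the iron regulatory protein also called IRP2, binds iron-responsive elements in mRNA, where it blocks translation of ferritin and stabilises the TFRC message, and NCOA4 carries ferritin to the lysosome for breakdown. Much of this control acts on translation and protein stability, which RNA levels do not report.

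The inducible oxygenase, a biliverdin reductase and both ferritin chains were higher with HADH-S, by ratios between 1.14 and 2.40, while the constitutive oxygenase, the other reductase, the receptor, the regulator and the ferritin carrier had ratios between 0.967 and 1.03. Of the 9 genes, 4 had a counting interval wholly above 1, and none of the 9 (0) had one wholly below it. Among the 10331 genes with a mean of at least 1 RPKM, 13.8% had such an interval above 1 and 11.6% below it. By a rule of size, a ratio of at least 2 in RPKM + 1, HMOX1 alone of the 9 was called higher and 0 were called lower, where 0.300% of all genes were called higher and 0.0484% lower. The median log2 ratio of RPKM + 1 was 0.04 over the 9 genes and 0.01 over all genes. HADH itself was at 54.4 RPKM in HADH-S cells, against 26.5 RPKM in control cells, the direction of the label. These values are per gene, so they do not tell the HADH-S isoform from other HADH messages.

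**Figure D1:**
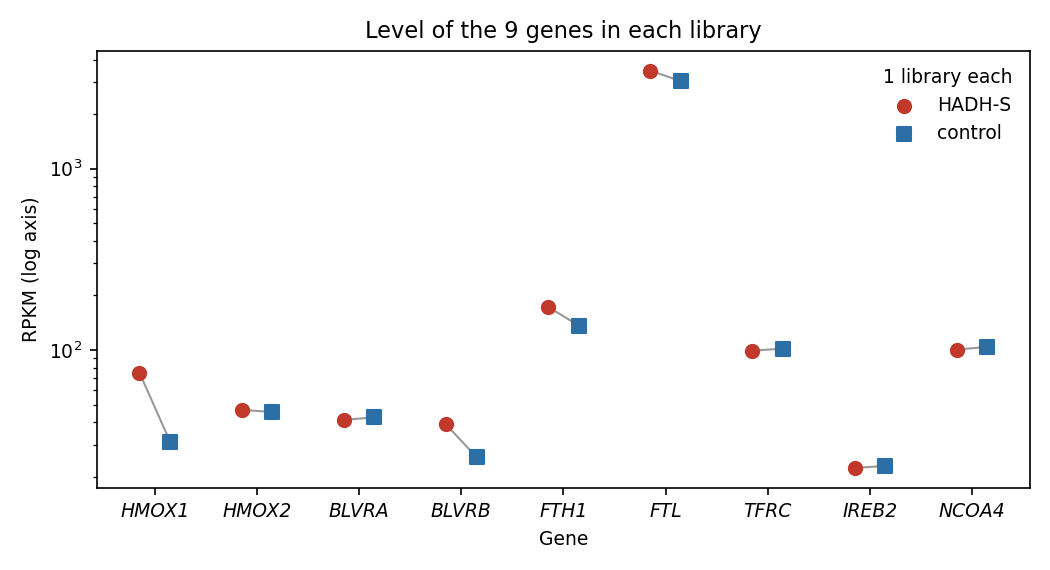
RPKM (log axis) of each of the 9 genes in the HADH-S library (circles) and the control library (squares), with a line joining the values of a gene. HMOX1 and BLVRB have the steepest lines, at 74.9 against 31.3 and 38.9 against 25.7 RPKM, and FTL is the highest in both libraries, at 3474 against 3039.8.

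HMOX1 (ENSG00000100292, chromosome 22, 35381096 to 35394207 in GRCh38.p14), the stress-inducible heme oxygenase, was at 74.9 RPKM in HADH-S cells, against 31.3 RPKM in control cells. Behind these levels were 811 and 329 reads on a transcript of 1554 nt, and the ratio was 2.40 (interval 2.11 to 2.73). HMOX1 was at rank 12 of the 10331 genes by its log2 ratio of 1.24. Among the 6354 genes with at least 400 reads over both libraries, a minimum set after the data had been seen, HMOX1 was at rank 3, and 0.110% of these genes were called higher. HMOX2 (ENSG00000103415, chromosome 16, 4474736 to 4510347), the constitutive oxygenase, was at 46.7 RPKM in HADH-S cells, against 45.5 RPKM in control cells, from 554 and 525 reads. Its ratio of 1.03 had an interval of 0.909 to 1.16, which includes 1. Read assignment of HMOX2 is less certain, because its gene overlaps NMRAL1 (14.8 against 14.9 RPKM) and the strand setting of the counting is not given in the sources used here.

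The order of both oxygenase messages differed between the libraries. Per length, HMOX1 stood at 1.60 times the level of HMOX2 with HADH-S and at 0.687 times that level in the control. The HMOX1 share of the summed RPKM of both genes was 61.6% in HADH-S cells, against 40.7% in control cells. The ratio of these ratios was 2.34 (interval 1.95 to 2.79). The summed heme oxygenase level was 122 RPKM in HADH-S cells, against 76.8 RPKM in control cells, a ratio of 1.58.

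The biliverdin reductases also parted. BLVRB (ENSG00000090013, chromosome 19, 40447768 to 40465745), a reductase of flavins and of the beta isomer of biliverdin, was at 38.9 RPKM in HADH-S cells, against 25.7 RPKM in control cells, from 254 and 163 reads. The ratio was 1.52 (interval 1.24 to 1.86). On the scale of RPKM + 1 its log2 ratio of 0.58 lay just below that of a 1.5-fold difference, which 1.47% of all genes reached. BLVRA (ENSG00000106605, chromosome 7, 43758122 to 43807342), the reductase of the alpha isomer that heme oxygenase makes, was at 41.2 RPKM in HADH-S cells, against 42.5 RPKM in control cells, from 333 and 334 reads, with a ratio of 0.970 (interval 0.831 to 1.13). The BLVRB level was 0.944 times that of BLVRA with HADH-S and 0.604 times in the control. The ratio of these ratios was 1.56 (interval 1.21 to 2.02), in a comparison chosen after the values had been seen. BLVRB had the fewest reads of the 9 genes and so the widest interval relative to its ratio.

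Shown for each reductase gene are the 250 bases before a RefSeq start, 5′ to 3′ on the coding strand in GRCh38.p14. They are shown because the ratios of the reductase genes between these 2 libraries differed beyond counting error. The BLVRB window adjoins the edge of its gene. The BLVRA window lies inside the BLVRA coordinates given above, before a later start, so the windows do not hold like positions. Capitals mark the GC box (GGGCGG, on either strand, bound by SP1 family factors) and the CCAAT box (CCAAT, on either strand, bound by NF-Y).
BLVRB, chr19:40465746-40465995, minus strand: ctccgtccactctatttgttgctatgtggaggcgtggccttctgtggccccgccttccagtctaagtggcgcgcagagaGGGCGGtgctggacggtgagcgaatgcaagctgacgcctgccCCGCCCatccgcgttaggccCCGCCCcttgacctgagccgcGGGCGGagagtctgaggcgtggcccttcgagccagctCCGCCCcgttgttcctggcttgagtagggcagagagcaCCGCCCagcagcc
BLVRA, chr7:43758430-43758679, plus strand: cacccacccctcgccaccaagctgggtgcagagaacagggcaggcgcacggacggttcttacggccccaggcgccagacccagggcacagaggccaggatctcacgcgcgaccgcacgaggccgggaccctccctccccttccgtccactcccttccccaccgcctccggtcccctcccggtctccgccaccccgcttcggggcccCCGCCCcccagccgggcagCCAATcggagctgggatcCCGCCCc
The BLVRB window held 6 GC boxes and no CCAAT box, while the BLVRA window held 2 GC boxes and 1 CCAAT box. Of all 35116 RefSeq windows of this length, 2.22% held at least 6 GC boxes and 24.3% held at least 2. GC content was 67.2% for BLVRB and 74.4% for BLVRA. These counts describe the sequences, and their part in the ratios was not tested.

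Windows were searched for 7 of the 9 genes, 10 windows in all, since some genes have more than 1 start. The promoter sequences used here held no window for HMOX1 or FTH1, so neither gene was searched. The core of the antioxidant response element (TGACNNNGC, both strands), through which NRF2 and BACH1 act, was in 0 of the 10 windows and in 10.9% of all windows. The AP-1 element (TGAGTCA, both strands) was in 0 of the 10 and in 4.20% of all windows. The core of the interferon-stimulated response element (GAAANNGAA, both strands) was in 1 window, of IREB2, and in 6.88% of all windows. GC boxes were in 7 of the 10 windows and in 42.6% of all windows, CCAAT boxes in 3 of the 10 and in 32.0%. The E-box (CACGTG, the same on both strands) was in 1 window, that of HMOX2, and in 6.34% of all windows, and the TATA box (TATAAA, both strands) in 1 window, that of TFRC, and in 10.7%. A window without a match lacks only these letters within its 250 bases.

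The messages of both ferritin chains stood above their control levels, by less than that of HMOX1. FTH1 (ENSG00000167996, chromosome 11, 61964285 to 61967634), the heavy chain with the ferroxidase centre that oxidises incoming iron, was at 173 RPKM in HADH-S cells, against 136 RPKM in control cells, from 1449 and 1111 reads. The ratio was 1.27 (interval 1.17 to 1.37), at rank 726 of the 10331 genes by log2 ratio. FTL (ENSG00000087086, chromosome 19, 48965309 to 48966879), the light chain that favours mineral formation in the shell, was at 3474 RPKM in HADH-S cells, against 3039.8 RPKM in control cells, from 21072 and 17934 reads. Its ratio of 1.14 had the narrowest interval of the 9 genes, 1.12 to 1.17, while its log2 ratio of 0.19 was at rank 1863, so that 18.0% of all genes lay as high or higher.

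FTL was among the most abundant messages, at rank 11 by RPKM in HADH-S cells and rank 14 in control cells. It took 0.303% of all reads in HADH-S cells (Wilson 95% interval 0.299 to 0.307), against 0.265% in control cells (0.261 to 0.269). The level of FTL was 20.1 times that of FTH1 with HADH-S and 22.3 times in the control. FTH1 over FTL had a ratio of ratios of 1.11 (interval 1.02 to 1.20). Both genes have many near-identical processed copies, 27 FTH1 and 20 FTL pseudogenes with numbered names in RefSeq, and 0 of these were among the listed genes. How the authors' counting treated reads that match both a gene and its copies is not given in the sources used here, so the absolute levels of the ferritin chains and the ratio of one chain to the other are uncertain. FTH1 also overlaps BEST1, which had 2 reads in HADH-S cells and 0 in control cells.

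The message of FTL carries an iron-responsive element, the hairpin that IREB2 binds, and the element is shown because it ties FTL to IREB2 among the 9 genes. A search for its pattern, an unpaired C before 5 paired bases and the loop CAGTGN, G-T pairs allowed, found it in the 50 bases after the start in 8 of the 35116 windows. FTL was among the 8, as was ALAS2, the erythroid heme synthesis gene whose message is known to carry such an element. FTH1, the other ferritin chain, had no window and so was not searched for the element. Capitals mark the loop.
FTL, chr19:48965334-48965357, plus strand: tctcttgcttcaaCAGTGTttgga
Whether translation through this element differed cannot be seen in RNA levels.

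**Figure D2:**
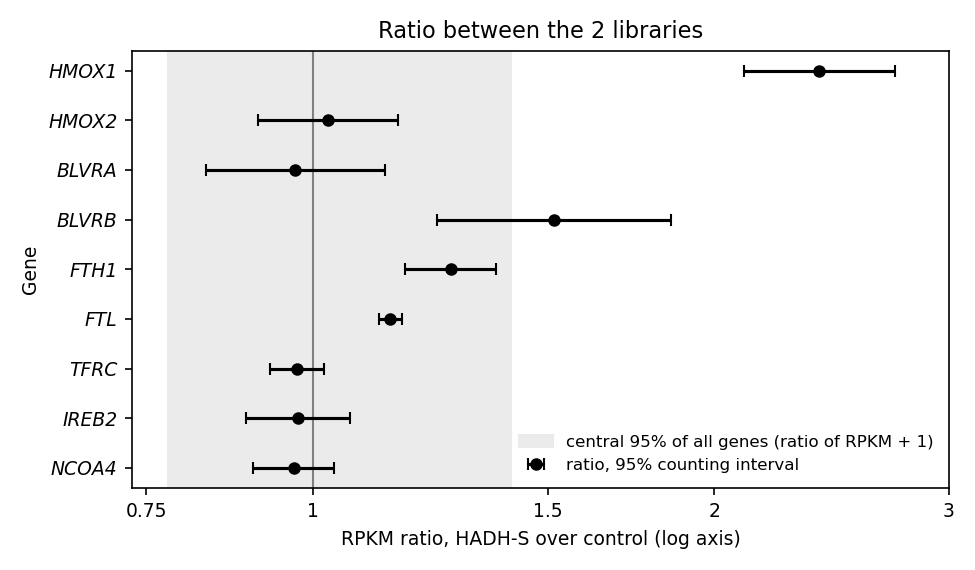
RPKM ratio of HADH-S over control (log axis) for each of the 9 genes, with exact 95% intervals for counting error, over the central 95% of all 10331 genes for the ratio of RPKM + 1 (grey). The intervals of HMOX1, BLVRB, FTH1 and FTL lie above 1, and the points of HMOX1 and BLVRB lie outside the grey range.

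The genes of iron uptake, iron sensing and ferritin breakdown were nearly level. TFRC (ENSG00000072274, chromosome 3, 196049284 to 196082090), the transferrin receptor, was at 99.1 RPKM in HADH-S cells, against 102 RPKM in control cells, from 3472 and 3471 reads. Its ratio of 0.973 had an interval of 0.928 to 1.02. IREB2 (ENSG00000136381, chromosome 15, 78437431 to 78501453) was at 22.3 RPKM in HADH-S cells, against 22.9 RPKM in control cells, from 984 and 982 reads, with a ratio of 0.975 (interval 0.891 to 1.07). NCOA4 (ENSG00000266412, chromosome 10, 46005088 to 46030623) was at 100.5 RPKM in HADH-S cells, against 104 RPKM in control cells, from 1615 and 1624 reads, with a ratio of 0.967 (interval 0.902 to 1.04). All 3 intervals include 1, and a difference within their bounds could not be detected at this depth. The ratio of ratios was 1.17 for FTL over TFRC (interval 1.12 to 1.24) and 1.30 for FTH1 over TFRC (interval 1.19 to 1.43), both chosen after the values had been seen.

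By level per length, the order in both libraries began with FTL, FTH1, NCOA4 and TFRC and ended with BLVRB and IREB2. NCOA4 and TFRC, neighbours in that order, did not differ beyond counting error in either library (NCOA4 over TFRC 1.01, interval 0.956 to 1.08, in HADH-S cells, and 1.02, interval 0.962 to 1.08, in control cells). HMOX1 followed TFRC with HADH-S, whereas HMOX2 and BLVRA stood between them in the control. HMOX2 and BLVRA did not differ beyond counting error in either library. BLVRB could not be told from BLVRA with HADH-S (BLVRA over BLVRB 1.06, interval 0.897 to 1.25) and could not be told from IREB2 in the control (BLVRB over IREB2 1.12, interval 0.942 to 1.32). The 9 genes together held 0.439% of reads in HADH-S cells (Wilson 95% interval 0.434 to 0.444), against 0.391% in control cells (0.386 to 0.396). Without FTL, the other 8 held 0.136% in HADH-S cells (0.133 to 0.139), against 0.126% in control cells (0.123 to 0.129).

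**Figure D3:**
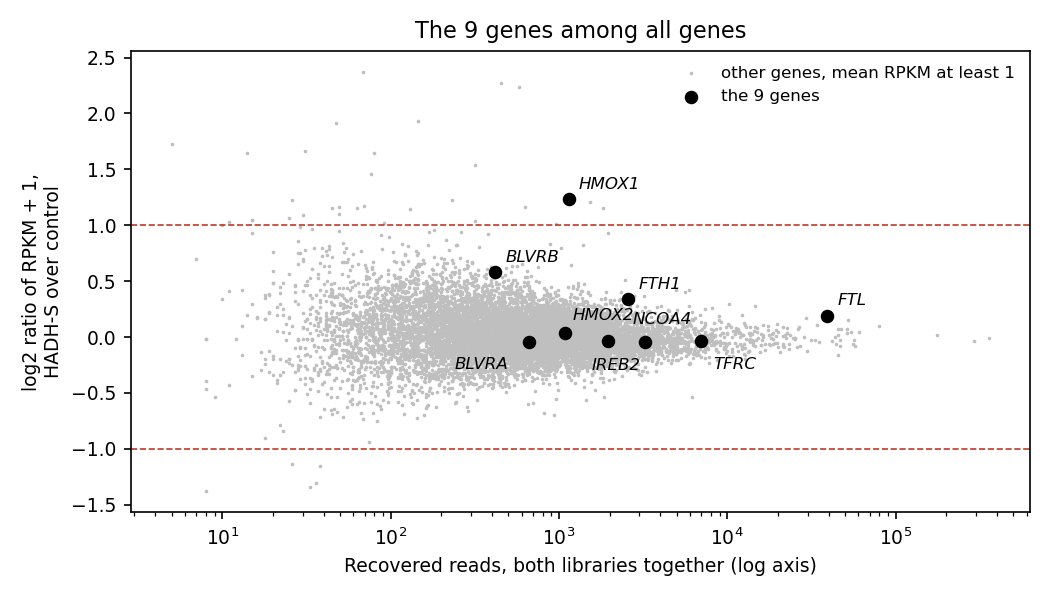
log2 ratio of RPKM + 1, HADH-S over control, against the reads of both libraries together (log axis) for the 10331 genes with a mean of at least 1 RPKM (grey) and the 9 genes (black), with dashed lines at the 2-fold limits. HMOX1 at 1.24 is the only black point above the upper line, BLVRB at 0.58 is the next, and FTL at 0.19 lies at the far right with 39006 reads.

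The transcripts to which the reads were assigned differed widely in length, from 871 nt for FTL to 6324 nt for IREB2. Those of TFRC and IREB2 have 2469 and 3313 bases after the coding part, against 147 for FTL and 445 for FTH1, as the deposited row labels give them. In TFRC this part is known to carry the iron-responsive elements that stabilise the message. The 4 genes that were higher had transcripts between 871 and 1554 nt. Of the 5 others, only BLVRA, at 1161 nt, fell in that range. HMOX2, NCOA4, TFRC and IREB2 had longer transcripts, between 1703 and 6324 nt. The part of transcript length in the ratios was not tested.

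Genes that feed, carry and use heme and iron were examined in 7 lists besides the 9 genes. Of their 86 members, 76 were listed and 69 had a mean of at least 1 RPKM. Of these 69, 0 reached the 2-fold limits in either direction, near the shares of all genes, 0.300% higher and 0.0484% lower. A counting interval lay wholly above 1 for 12 and wholly below it for 3, where all genes had 13.8% above and 11.6% below. Both directions together made 21.7% of the 69, where 25.4% of all genes had such an interval. By sign, 51 of the 69 log2 ratios lay above 0 and 18 below it, where all genes had 5396 above and 4935 below. The median log2 ratio of the 69 was 0.08, where that of all genes was 0.01, and their highest single value was 0.49.

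Heme synthesis had 2 of 8 measured genes with an interval above 1, 0 below 1 and a median log2 ratio of 0.09. Among all genes, 13.8% had such an interval above 1 and 11.6% below it, and the median was 0.01. ALAS1, the rate-limiting enzyme outside red cells, was at 37.2 RPKM in HADH-S cells, against 32.3 RPKM in control cells (ratio 1.15, interval 1.02 to 1.29). ALAD, which joins aminolevulinate into porphobilinogen, was at 8.72 RPKM in HADH-S cells, against 7.12 RPKM in control cells (ratio 1.22, interval 0.983 to 1.53). UROS, which closes the ring, was at 20.0 RPKM in HADH-S cells, against 24.4 RPKM in control cells (ratio 0.817, interval 0.660 to 1.01). Among heme carriers and electron suppliers, 3 of 10 had an interval above 1 and 0 below 1, with a median of 0.20. SLC46A1, a folate and heme carrier, was at 1.70 RPKM in HADH-S cells, against 1.05 RPKM in control cells (ratio 1.63, interval 1.12 to 2.40). CYB5R3, a cytochrome b5 reductase, had a ratio of 1.22 (interval 1.09 to 1.37) and FLVCR2 one of 1.44 (interval 0.799 to 2.63).

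Iron transport held 1 of 8 genes with an interval above 1 and 0 below 1, with a median of 0.08. This gene was SLC25A28 (mitoferrin 2), a carrier of iron into mitochondria, at 10.6 RPKM in HADH-S cells, against 7.26 RPKM in control cells (ratio 1.47, interval 1.08 to 1.99). The second transferrin receptor gene TFR2 had a ratio of 1.16 (interval 0.943 to 1.43), and HFE, whose protein binds the transferrin receptor, also had one of 1.16 (interval 0.924 to 1.45). The iron exporter gene SLC40A1 was listed in neither table and was not evaluated. Among the regulators and iron chaperones, 1 of 5 genes had an interval above 1 and 0 below 1, with a median of 0.09. The counts of both lists stand beside 13.8% above and 11.6% below among all genes. PCBP1, which delivers iron to ferritin, was at 156 RPKM in HADH-S cells, against 133 RPKM in control cells (ratio 1.18, interval 1.10 to 1.26). HERC2, a ligase that degrades NCOA4, had a ratio of 1.08 (interval 0.994 to 1.18), and FBXL5, which marks IREB2 for degradation when iron is plentiful, one of 1.07 (interval 0.929 to 1.23).

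The known regulators of HMOX1 transcription had smaller ratios than HMOX1 itself, as nearly all genes did. Of 10 measured, 1 had an interval above 1 and 1 below 1, the median log2 ratio was 0.08, and the values ran from -0.15 to 0.20. The heat shock factor HSF1 was at 58.3 RPKM in HADH-S cells, against 50.5 RPKM in control cells (ratio 1.15, interval 1.04 to 1.28). The small MAF genes MAFK and MAFF, whose proteins pair with NRF2 and BACH1, had ratios of 1.16 (interval 0.962 to 1.41) and 1.15 (interval 0.879 to 1.52). The gene with an interval below 1 was CUL3, of the ligase that degrades NRF2, with a ratio of 0.898 (interval 0.814 to 0.990). CUL3, BACH1, the heme-sensing repressor, and NFE2L2, which encodes NRF2, were chosen after their values had been seen. BACH1 was at 14.3 RPKM in HADH-S cells, against 15.6 RPKM in control cells (ratio 0.917, interval 0.816 to 1.03). NFE2L2 was at 29.0 RPKM in HADH-S cells, against 27.9 RPKM in control cells (ratio 1.04, interval 0.912 to 1.18). Both of these intervals include 1, and both proteins are controlled largely after transcription. Antioxidant genes driven by NRF2 had 4 of 15 with an interval above 1 and 0 below 1, where all genes had 13.8% above and 11.6% below. Their median log2 ratio was 0.07, with 13 values above 0 and 2 below it. SRXN1, which repairs peroxiredoxins, had a ratio of 1.21 (interval 0.995 to 1.47), and GCLM, a subunit of the enzyme that starts glutathione synthesis, one of 1.18 (interval 1.02 to 1.35).

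**Figure D4:**
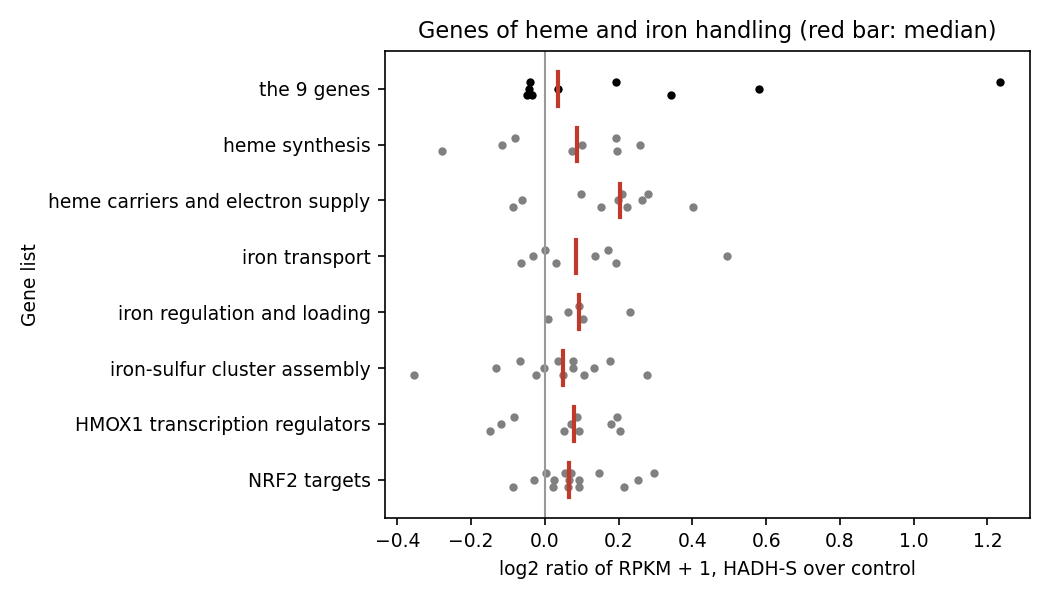
log2 ratio of RPKM + 1, HADH-S over control, for each gene with a mean of at least 1 RPKM in the 9-gene set (black) and in the 7 related lists (grey), with a red bar at each median. On this scale, HMOX1 at 1.24 and BLVRB at 0.58 lie above every gene of the related lists, whose highest value is 0.49. In plain RPKM, SLC46A1 of the related lists had a ratio of 1.63, against 1.52 for BLVRB.

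The genes most like HMOX1 in their ratio were sought among the 9451 other genes with at least 100 reads, over the 2 libraries. The measure was the difference of the log2 RPKM ratio from the 1.26 of HMOX1. Closest were MX1 (difference -0.01), TMEM238 (-0.03), SAMD9L (0.08), ISG15 (-0.10) and HELZ2 (0.14). MX1, an antiviral GTPase, was at 45.0 RPKM in HADH-S cells, against 18.9 RPKM in control cells, and ISG15, a ubiquitin-like modifier, at 287 RPKM in HADH-S cells, against 128 RPKM in control cells. Of the 9451 genes, 7 had a ratio as high as HMOX1 or higher. With 2 libraries, likeness of pattern means only likeness of a single ratio.

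Markers of other cell types were examined because macrophages and red cell precursors are rich in heme and ferritin genes. Of 10 macrophage and leukocyte markers, CD68, which encodes a lysosomal membrane protein, was the only one listed, at 478 RPKM in HADH-S cells, against 389 RPKM in control cells. Of the red cell and endothelial markers, 0 of 9 and 0 of 5 were listed, and the 2 listed fibroblast markers of 7 summed to 0.0751 RPKM in HADH-S cells, against 0.0553 RPKM in control cells. Epithelial markers were listed for 4 of 8 genes. KRT18 was the highest and nearly level, at 93.8 RPKM in HADH-S cells, against 91.7 RPKM in control cells (ratio 1.02, interval 0.932 to 1.12). EPCAM was at 9.57 RPKM in HADH-S cells, against 8.20 RPKM in control cells, CDX2 at 4.37 against 3.60 and KRT8 at 2.81 against 2.54. CDH1, KRT19, KRT20 and VIL1 were listed in neither table. The leukocyte marker PTPRC and the macrophage markers CD14, CD163 and CSF1R were listed in neither table. CD68 was higher together with HMOX1 and the ferritin chains (ratio 1.23, interval 1.18 to 1.28), and its part in these results was not tested. In bulk RNA, more cells with a message and more message per cell cannot be told apart.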

How the data were processed

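RNA of 2 RKO libraries was analysed; the chromatin immunoprecipitation and input libraries of the series were not used here. The authors deposited RPKM values, 1 per gene and library, per the file headers; the submitters' processing notes name fastp 0.23.2, SAMtools 1.9 and GRCh38. Neither the aligner nor the counter is given in the sources used here, nor is the strand setting. In each library, RPKM times transcript length came in whole steps (100% of values within 0.01 reads), from which the reads were recovered. Genes without a read are not listed, so a gene in 1 table only was taken as 0 reads in the other; 3 reads correspond to 0.137 RPKM in HADH-S cells, against 0.140 RPKM in control cells at the median length. Log2 ratios used a pseudocount of 1, which understates low genes, at a mean RPKM of at least 1. Ratio intervals are conditional Clopper-Pearson at 95%, in scipy 1.17.1 and Python 3.11.15. The code was run on reads simulated with counting error alone, which cannot show how the intervals do under spread between cultures. Without molecular identifiers, reads may repeat the same molecule. With no replicates no p-value is given. Named were the 9 genes, the 3 of each list with the largest absolute log2 ratio, the 5 most like HMOX1, and HADH. Of the genes so named, 1 is not reported here. Members and lists were chosen with earlier results of these data known. Alternatives were other pseudocounts, rescalings, filters, a 1.5-fold rule and reads without division by length. Gene coordinates and promoter sequences are RefSeq's (GRCh38.p14), matched by symbol.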

Additional observations from a re-analysis of the deposited data

How the results depend on the processing

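No paired analysis was possible because each condition has 1 library, and for the same reason no replicate could be left out. The log2 ratio of HMOX1 ranged over 1.14 to 1.26 in its 7 alternatives, and HMOX1 was the only called gene of the 9 under each alternative. The filters could not change this, since each of the 9 had a mean of at least 22.6 RPKM and at least 417 reads. The 1.5-fold rule was applied at the pseudocount of 1 only, where BLVRB lay just below it. Its ratio in plain RPKM was 1.52. The log2 ratio of BLVRB ran from 0.52 to 0.60, that of FTH1 from 0.32 to 0.34 and that of FTL from 0.17 to 0.19. The others kept their sign. After the rescaling that lowers HADH-S most, the 4 intervals above 1 still began at 1.10 or higher. The counts over all genes, 31 higher and 5 lower, moved with the pseudocount, the filters and the fold limit. Higher genes numbered 69 with a pseudocount of 0.1, 8 with 5, 152 at a 1.5-fold rule, 12 when a mean of 5 RPKM was required and 7 when 400 reads were, the last added after the data had been seen. Lower genes numbered 15 with a pseudocount of 0.1, 8 with 0.5, 0 with 5, 45 at the 1.5-fold rule, 9 without a filter, 0 at the minimum of 5 RPKM and 0 at that of 400 reads. By construction, low genes shrink under a larger pseudocount and are removed by such minimums. Depth limits BLVRB most, whose interval rests on 254 and 163 reads. The spread between cultures of 1 condition is unknown.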

Other observations

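Assembly of iron-sulfur clusters, the main use of mitochondrial iron beside heme, was near level. Of 13 genes, 0 had a counting interval wholly above 1 and 2 wholly below it, with a median log2 ratio of 0.05. Among all genes, 13.8% had such an interval above 1 and 11.6% below it. HSCB, a co-chaperone that hands clusters on, was at 14.4 RPKM in HADH-S cells, against 18.7 RPKM in control cells (ratio 0.771, interval 0.596 to 0.996). FDX2, the ferredoxin of cluster synthesis, was at 28.7 RPKM in HADH-S cells, against 23.5 RPKM in control cells (ratio 1.22, interval 0.987 to 1.51), and ISCA2, a late-acting assembly protein, at 6.34 RPKM in HADH-S cells, against 5.49 RPKM in control cells (ratio 1.16, interval 0.873 to 1.53).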
